A study of Sus scrofa with 12 samples.

Results

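The genes described here encode the nuclear-encoded subunits of oxidative phosphorylation, that is, the subunits of complexes I to V of the mitochondrial inner membrane together with cytochrome c. They were taken from a list of 54 gene symbols set by function, with no threshold on measured values. Of these, 47 were found among the 35682 genes of the count files, with 22 in complex I, 4 in complex II, 6 in complex III, 7 in complex IV, 7 in complex V and CYCS for cytochrome c. All 47 passed the filter on low counts, which left 13844 genes in the comparison. The other 7 (NDUFA12, NDUFB3, NDUFS7, UQCRH, COX6B1, ATP5F1B and ATP5PD) were not analysed here, because the gene name table used pairs no identifier with their symbols.

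RNA was sequenced from the border zone, the tissue next to the infarct, and from the remote zone, the posterior wall, of 6 pig hearts, giving 6 libraries per region and 1 of each region per animal. The animals were female Yorkshire pigs of 10 to 12 weeks. All had a 60-minute balloon occlusion of the left anterior descending artery with reperfusion, and from day 9 after that injury all were immunosuppressed with daily doses of 20 mg prednisolone, 500 mg mycophenolate mofetil and 0.75 mg/kg tacrolimus. On day 14 either scaffold-free vascular organoids of human endothelial progenitor and smooth muscle cells or fibrin glue alone were placed on the heart through a left thoracotomy, and the hearts were taken 4 weeks later. The labels do not tie an animal number to a treatment, so both regions hold animals of both treatments and the treatments were not compared. The region was taken from the sample titles, whereas the extraction text shared by all samples names only mid-border zone tissue, and the library names of animal 3622 run in the opposite order of regions to those of the other 5 animals. No uninjured heart was analysed, so the remote zone serves as the within-heart reference.

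Oxidative phosphorylation makes most of the ATP of the beating heart. Complex I and complex II pass electrons from NADH and succinate to coenzyme Q, complex III passes them on to cytochrome c, complex IV hands them to oxygen, and complex V, the ATP synthase, uses the proton gradient so formed to make ATP. Complex II is built from nuclear genes alone, whereas the other complexes also hold subunits encoded in mitochondrial DNA, and heart muscle cells are among the cells richest in all of them.

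Library totals ran from 15130210 to 31618680 counts, and every subunit was well covered, with between 729 (NDUFB6) and 94967 (ATP5F1A) reads per library. The border zone library of animal 1022 stood apart from the other border zone libraries in this gene group and in its markers of fibroblasts and matrix, the border zone library of animal 3622 had the smallest total and listed the most genes with a count (28024, against 16932 to 20148 in the other libraries), and the remote zone library of animal 3622 had 33.5% of its counts on mitochondrially encoded genes, against 5.69% to 21.4% elsewhere. Results are therefore also given without animal 1022 or animal 3622. CPM below is the count scaled to the TMM library size, SE is the standard error, and log2 fold changes are border over remote zone. They come from the quasi-likelihood test of edgeR, and adjusted p values are by Benjamini-Hochberg over all 13844 genes.

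All 47 subunits had a log2 fold change below 0, from -1.03 for NDUFS8 to -0.36 for NDUFS1, with a median of -0.74, whereas 46.7% of all genes tested were below 0 and their median was 0.04. None of the 47 had an adjusted p under 0.05 in edgeR, the lowest being 0.0904 for NDUFB7. This threshold was passed in the lower direction by 2 of all genes tested (0.0144%) and in the higher direction by 285 (2.06%). At an unadjusted p under 0.05, 28 of the 47 passed, all lower in the border zone, against 7.78% of all genes tested. With the animal as a block, the median was -0.84, 0 of 47 passed after adjustment (lowest adjusted p = 0.0798, edgeR; 0.00722% of all genes were called lower) and 41 passed unadjusted (12.4% of all genes). The Wald test of DESeq2 called 7 of the 47 lower, NDUFB7, NDUFS8, NDUFS6, NDUFB10 and NDUFA10 of complex I, COX4I1 of complex IV and ATP5F1D of complex V, with adjusted p from 0.0239 to 0.0498, and called 1.85% of all genes lower. The call of single subunits therefore depended on the test, and in edgeR none differed beyond the spread between animals after adjustment. On simulated counts edgeR recovered 28% of 2-fold changes and called 5 unchanged genes, whereas DESeq2 recovered 47% and called 41. The median of -0.74 is less than a 2-fold change, so the 0 calls by edgeR do not show that the subunits were unchanged.

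**Figure D1:**
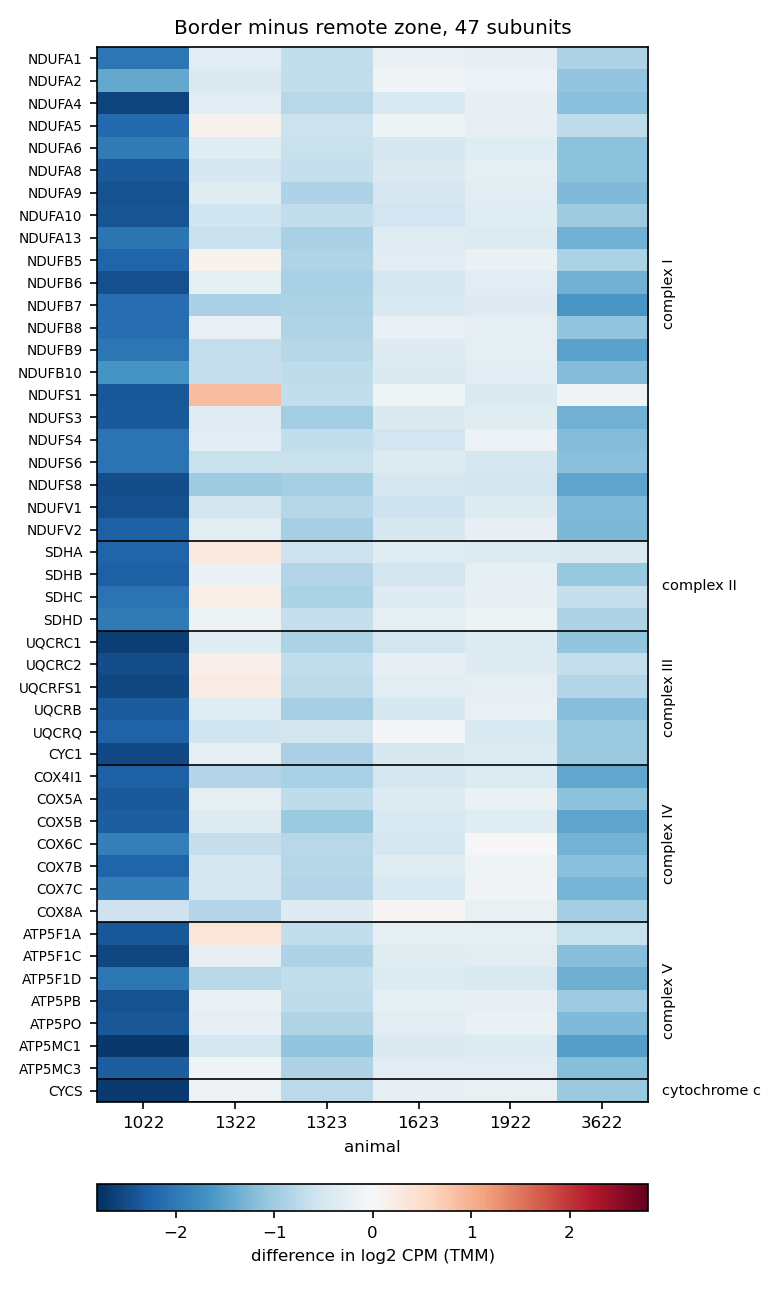
Difference in log2 CPM between border zone and remote zone (colour, blue where the border zone is lower) for the 47 subunits (rows, grouped by complex) in each of the 6 animals (columns). The column of animal 1022 is the darkest, from -2.71 for ATP5MC1 to -0.59 for COX8A, and the only values above 0 are 8 genes in animal 1322 and COX8A in animal 1623.

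Within animals, the border zone had the lower value in all 6 animals for 38 of the 47 subunits, against 11.1% of all genes tested. For each of these 38 flipping the signs of the 6 differences in every way (exact permutation test, two-sided) gave p = 0.031, the smallest that 6 animals allow, which could not pass a correction over all genes. Averaged over the 47, the difference in log2 CPM was -2.23 in animal 1022, -1.11 in animal 3622, -0.78 in animal 1323, -0.36 in animal 1623, -0.32 in animal 1322 and -0.28 in animal 1922 (mean -0.84, SD 0.75, n = 6). The sign was shared by the 6 animals and the size was not. Size and order also depended on the scaling. With library totals the differences were -1.83 in animal 1022, -0.57 in animal 1323, -0.40 in animal 3622, -0.25 in animal 1623, -0.17 in animal 1922 and -0.04 in animal 1322, so animal 1022 was furthest from 0 either way and animal 3622 was second under TMM alone of these 2 scalings. The subunits also lay close together within each animal, with an SD over the 47 differences of 0.10 to 0.35, compared with 0.64 to 1.61 over all genes tested. The SD over all genes includes genes of low level, whose counting error is larger.

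The groups overlapped for most subunits. Every border zone library was below every remote zone library for 4 of the 47, NDUFA9, NDUFA10, NDUFB7 and NDUFV1, all in complex I, and for 0.701% of all genes tested. Without animal 1022 the median log2 fold change over the 47 was -0.60, with 40 at an unadjusted p under 0.05 (6.98% of all genes tested were lower at this threshold), and without animal 3622 it was -0.64, with 4 (2.97%). Leaving out animal 1323 gave 13 (6.89%), animal 1623 15 (5.21%), animal 1922 25 (6.68%) and animal 1322 34 (8.88%). No fit of edgeR that left out an animal called any of the 47 after adjustment. Scaling by library totals alone moved the median of all genes tested to 0.32 and that of the 47 to -0.44, and 6 of the 47 then had an unadjusted p under 0.05, against 0.809% of all genes in the lower direction. In bulk tissue, fewer cells of a type and less RNA per cell cannot be told apart.

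Animals varied more in border zone samples than in remote zone samples for 46 of the 47 subunits, against 62.5% of all genes tested. The median SD of log2 CPM was 0.87 in the border zone and 0.32 in the remote zone. This difference rested on animal 1022, without which the median SDs were 0.30 and 0.33. The remote zone values were tightest for UQCRC2, UQCRFS1 and ATP5F1A, each with an SD of 0.11.

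**Figure D2:**
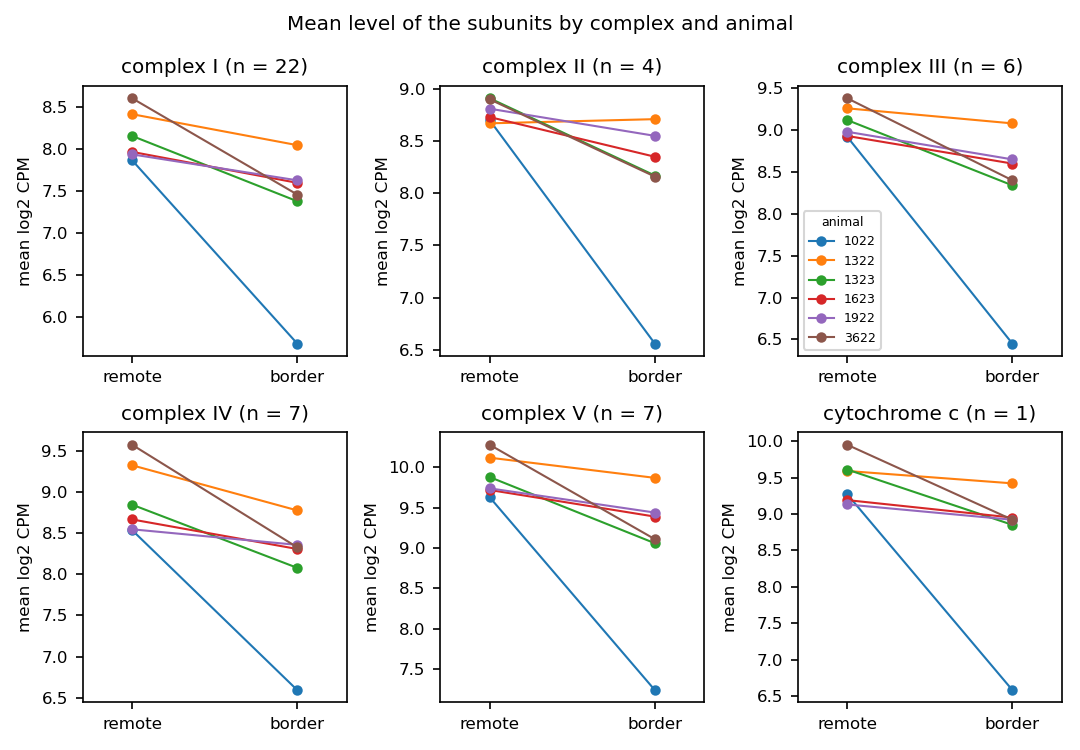
Mean log2 CPM of the subunits of each complex (vertical axis, with its own range in each panel) in the remote and border zone, with 1 line per animal. Lines go down from remote to border in every panel except for animal 1322 in complex II (8.67 to 8.71), and the border zone of animal 1022 is the lowest point of each panel.

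Complex I, the NADH dehydrogenase, had a median log2 fold change of -0.77 over 22 subunits, 15 of which had an unadjusted p under 0.05, against 7.78% of all genes in that direction. NDUFB7, an accessory subunit of its membrane arm, had 28.8 to 123 CPM (median 85.2) in the border zone and 125 to 230.2 CPM (median 135) in the remote zone, for a log2 fold change of -0.97 (SE 0.31, adjusted p = 0.0904 by edgeR). The 2 ranges did not overlap. NDUFS8, which carries iron-sulfur clusters of the core, had 93.2 to 524 CPM (median 366) in the border zone and 519 to 1046 CPM (median 581) in the remote zone, with -1.03 ± 0.35 (SE, adjusted p = 0.107 by edgeR), and its ranges met at their ends. NDUFS6, an accessory subunit that binds zinc, had border zone values of 53.6 to 214 CPM (median 163) and remote zone values of 209.9 to 349.5 CPM (median 260.0), with -0.80 ± 0.27 (SE, adjusted p = 0.112 by edgeR).

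NDUFV1, the subunit that binds NADH and flavin, had 109 to 579 CPM (median 392) in the border zone and 581 to 859 CPM (median 659) in the remote zone. Its log2 fold change was -0.84 (SE 0.32, adjusted p = 0.135 by edgeR), and the lowest remote zone library was just above the highest border zone library. NDUFS1, the large core subunit with iron-sulfur clusters, was the member nearest to 0, with 87 to 438 CPM (median 344) in the border zone and 241 to 537 CPM (median 439.8) in the remote zone. Its log2 fold change was -0.36 (SE 0.33, adjusted p = 0.519 by edgeR) and its ranges overlapped widely. In animal 1322 NDUFS1 was higher in the border zone by 0.86 on the log2 scale and in animal 3622 the difference was -0.09, while in animal 1022 it was -2.37, within the range of the other subunits.

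Complex II, the succinate dehydrogenase that also serves the citric acid cycle, had the median nearest to 0 among the 5 complexes, -0.55 over its 4 subunits. The iron-sulfur subunit SDHB had 67.4 to 358 CPM (median 219.8) in the border zone and 325 to 443 CPM (median 365) in the remote zone, with a log2 fold change of -0.70 (SE 0.30, adjusted p = 0.171 by edgeR). The flavoprotein subunit SDHA had 259 to 1126 CPM (median 848) and 925 to 1340.3 CPM (median 1176), with -0.49 ± 0.29 (SE, adjusted p = 0.299 by edgeR). The membrane anchors SDHC and SDHD had log2 fold changes of -0.53 and -0.57, with adjusted p = 0.256 and 0.197 by edgeR. Leaving out animal 1022 brought the complex II median to -0.40. SDHA and SDHC were higher in the border zone in animal 1322, by 0.28 and 0.17, and lower in the other 5 animals.

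Complex III, the cytochrome bc1 complex, had a median of -0.72 over 6 subunits. UQCRC1, a core subunit, had 169 to 1062 CPM (median 693) in the border zone and 1050.3 to 1372 CPM (median 1121) in the remote zone, with -0.78 ± 0.33 (SE, adjusted p = 0.168 by edgeR). CYC1, the cytochrome c1 subunit, had 142 to 914 CPM (median 631) and 822 to 1252 CPM (median 999.6), with -0.74 ± 0.34 (SE, adjusted p = 0.196 by edgeR). The Rieske iron-sulfur protein UQCRFS1 lay at -0.54 ± 0.33 (SE, adjusted p = 0.319 by edgeR), and UQCRB, a small accessory subunit, at -0.77 ± 0.33 (SE, adjusted p = 0.17 by edgeR). For each of these the top of the border zone range reached into the remote zone range. CYCS, the soluble electron carrier between complexes III and IV, had 95.5 to 683 CPM (median 484) in the border zone and 560.5 to 988 CPM (median 693) in the remote zone, with -0.67 ± 0.35 (SE, adjusted p = 0.243 by edgeR). CYCS has processed copies elsewhere in mammalian genomes, as do COX7C and NDUFA4, so its count is uncertain to the extent that reads were shared with them.

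Complex IV, cytochrome c oxidase, had a median of -0.79 over 7 subunits. COX4I1, the ubiquitous form of subunit 4, had 332 to 1859 CPM (median 1271) in the border zone and 1630.4 to 3388 CPM (median 1894) in the remote zone, with -0.95 ± 0.35 (SE, adjusted p = 0.132 by edgeR). COX5B and COX5A, subunits on the matrix side, lay at -0.84 and -0.70, with adjusted p = 0.174 and 0.211 by edgeR, and COX7C, another membrane subunit, at -0.80 with adjusted p = 0.144 by edgeR. COX8A, the ubiquitous form of a small membrane subunit, differed in pattern from the rest. It had 59.4 to 96 CPM (median 82) in the border zone and 83.3 to 171 CPM (median 98.5) in the remote zone, with -0.53 ± 0.20 (SE, adjusted p = 0.144 by edgeR). In animal 1022, where the other 46 subunits lay between -2.71 and -1.44, the difference of COX8A was -0.59, and in animal 1623 it was 0.04.

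Several subunits of complex IV exist as heart-type and ubiquitous forms, which were looked up in a further list of 29 nuclear subunits. The heart-type forms COX7A1 and COX6A2 had log2 fold changes of -0.99 and -0.95, with adjusted p = 0.169 and 0.155 by edgeR. COX7A2, the ubiquitous counterpart of COX7A1, had -0.54, with adjusted p = 0.287 by edgeR. Within animals the difference was lower for COX7A1 than for COX7A2 in 6 of 6 animals, by -1.36 in animal 1022 to -0.03 in animal 1922 (mean -0.57, SD 0.45, n = 6). COX4I2, an isoform of subunit 4, was expressed at 3.25 to 17.3 CPM over both regions and had a log2 fold change of 0.19, with adjusted p = 0.828 by edgeR. COX6A1 was listed at 0 counts in all 12 libraries. Whether its transcript was absent or its reads were not assigned to this identifier was not tested. The COX7A pair was singled out after its values had been seen, so its gap is a description without a test.

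Complex V, the ATP synthase, had a median of -0.71 over 7 subunits. ATP5F1D, the delta subunit of its central stalk, had 174 to 681 CPM (median 460.1) in the border zone and 616 to 1169 CPM (median 758) in the remote zone, with -0.86 ± 0.29 (SE, adjusted p = 0.109 by edgeR). ATP5F1A, the catalytic-head subunit alpha, had 527 to 3238 CPM (median 2179) and 2572 to 3127 CPM (median 2882), with -0.47 ± 0.32 (SE, adjusted p = 0.385 by edgeR). The highest single library for ATP5F1A was thus a border zone library, that of animal 1322. ATP5PO, a peripheral stalk subunit, lay at -0.71 with adjusted p = 0.183 by edgeR. ATP5MC1 and ATP5MC3, which encode the same mature c subunit of the membrane ring, had log2 fold changes of -0.91 and -0.68, with adjusted p = 0.169 and 0.23 by edgeR. The difference of ATP5MC1 was below that of ATP5MC3 in each of the 6 animals, by -0.40 to -0.08 (mean -0.25, SD 0.14), which is likewise given without a test.

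Levels were compared between genes per kilobase of exon, for the 38 subunits with an exon length in the RefSeq annotation. In the remote zone the median level ran from 61.7 CPM per kilobase for NDUFA5 to 1562 for ATP5F1A, a ratio of 25.3. ATP5F1A, COX5B (1519), ATP5MC3 (1151), ATP5MC1 (1107) and NDUFA4 (987) had the highest levels. NDUFA4 was first assigned to complex I, as listed here, and has since been placed in complex IV. By complex, the median level was 258 CPM per kilobase over 22 subunits of complex I, 399.5 over 4 of complex II, 609 over 3 of complex IV and 836 over 7 of complex V. The order was much the same in the border zone (Spearman rho 0.98 across the 38 genes, which share libraries). This describes the order and not the size of the difference between regions. The remote zone ranges of neighbours in this order overlapped for 36 of 37 pairs, the exception being NDUFA5 (55.8 to 83.6 CPM per kilobase) below NDUFS4 (87 to 156), and exon lengths from another annotation than that used for counting add to the uncertainty of each level.

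**Figure D3:**
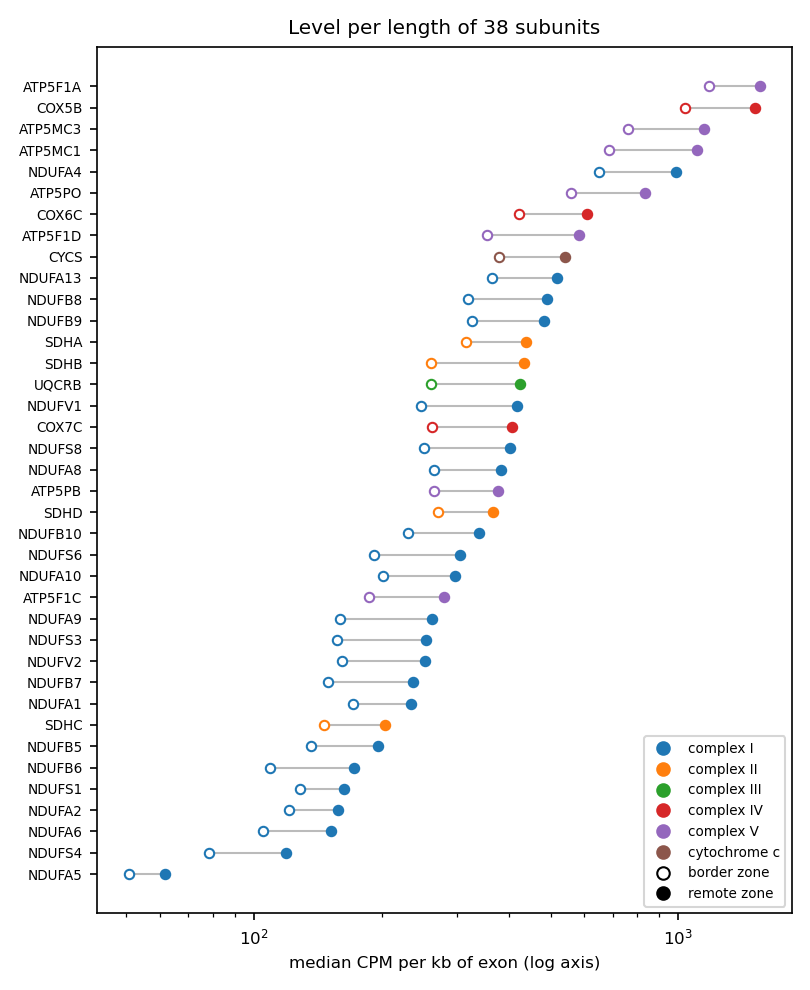
Median CPM per kilobase of exon (horizontal log axis) of 38 subunits in the border zone (open points) and remote zone (filled points), coloured by complex and ordered by the remote zone level. ATP5F1A and COX5B are at the top and NDUFA5 is at the bottom, and each open point lies to the left of its filled point.

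The promoter windows of the subunits were read from the same genome build, since nuclear genes for these complexes are known to share binding sequences for a few transcription factors. Nuclear respiratory factor 1 (NRF1), the ETS factor GABPA (also called NRF2), the estrogen-related receptors (ERR) and YY1 are the best known. A window of 250 bases before and 50 bases after the annotated gene start could be read for 38 of the 47 subunits and for 19522 genes in all. On either strand, the NRF1 motif GCGCATGC was in 5 of the 38 windows (13.2%, against 3.06% of all windows), the ETS motif CCGGAAGT in 7 (18.4% against 4.68%), the YY1 motif AAGATGGC in 5 (13.2% against 2.47%) and the ERR motif TCAAGGTCA in 2 (5.26% against 0.359%). The SP1 motif GGGGCGGG was in 7 (18.4% against 28.2%) and the NF-Y motif CCAATCA in 0 (against 7.05%). Of the 38 windows, 15 held at least 1 of the first 4 motifs. With shorter cores the shares were 26.3% against 6.7% for CGCATG (NRF1), 39.5% against 17.8% for CCGGAA (ETS), 15.8% against 5.26% for AAGATGG (YY1), 21.1% against 3.77% for AAGGTCA (ERR), 65.8% against 50.6% for GGGCGG (SP1) and 26.3% against 35.4% for CCAAT (NF-Y), so the order for SP1 turned with the length of the motif. No matches of different full-length motifs overlapped in the 38 windows. A match is a description of the letters and not of binding.

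Windows of 5 subunits are shown to let these motifs be seen in place: NDUFB7, which had the lowest p of all 47, the only window with 3 of the motifs (SDHD), the other with the ERR motif (ATP5MC3), and both in which the NRF1 and YY1 motifs occur together (NDUFA6 and ATP5PO). Each runs 5′ to 3′ on the strand of the gene from 250 bases before to 30 bases after its RefSeq start on Sscrofa11.1, with motif matches in capitals.
NDUFB7 (chr2:64718642-64718921, plus strand): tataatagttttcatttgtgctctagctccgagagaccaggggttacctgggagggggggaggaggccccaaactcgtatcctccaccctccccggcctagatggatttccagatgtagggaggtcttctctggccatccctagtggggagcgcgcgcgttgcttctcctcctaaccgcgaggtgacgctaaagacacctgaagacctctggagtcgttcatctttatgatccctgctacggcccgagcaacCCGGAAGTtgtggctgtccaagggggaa
NDUFA6 (chr5:6561824-6562103, plus strand): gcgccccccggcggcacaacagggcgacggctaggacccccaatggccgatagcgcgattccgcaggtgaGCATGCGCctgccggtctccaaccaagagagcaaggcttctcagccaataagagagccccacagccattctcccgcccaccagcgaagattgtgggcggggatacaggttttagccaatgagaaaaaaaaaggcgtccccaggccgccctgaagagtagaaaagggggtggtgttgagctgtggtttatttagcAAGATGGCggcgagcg
SDHD (chr9:39790404-39790683, plus strand): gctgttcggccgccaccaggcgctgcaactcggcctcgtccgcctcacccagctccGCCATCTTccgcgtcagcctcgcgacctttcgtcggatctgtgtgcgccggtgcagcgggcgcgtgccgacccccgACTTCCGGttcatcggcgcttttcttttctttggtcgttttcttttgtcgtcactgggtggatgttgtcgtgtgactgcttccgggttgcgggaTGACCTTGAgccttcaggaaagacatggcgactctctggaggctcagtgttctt
ATP5PO (chr13:197519501-197519780, minus strand): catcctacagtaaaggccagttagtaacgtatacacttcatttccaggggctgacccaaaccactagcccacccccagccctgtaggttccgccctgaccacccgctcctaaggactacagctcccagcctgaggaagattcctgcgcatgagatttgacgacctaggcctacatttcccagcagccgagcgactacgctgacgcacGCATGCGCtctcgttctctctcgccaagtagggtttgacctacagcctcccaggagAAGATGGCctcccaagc
ATP5MC3 (chr15:81094268-81094547, minus strand): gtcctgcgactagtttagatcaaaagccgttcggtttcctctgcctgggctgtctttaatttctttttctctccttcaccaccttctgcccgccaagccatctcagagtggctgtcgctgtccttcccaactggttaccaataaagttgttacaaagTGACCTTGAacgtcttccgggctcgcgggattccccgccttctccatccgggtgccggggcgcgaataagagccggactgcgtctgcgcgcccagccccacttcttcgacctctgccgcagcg
In NDUFB7 the capitals mark the ETS motif at the gene start, and in NDUFA6 and ATP5PO the first capitals mark the NRF1 motif and the second the YY1 motif just after the start. In SDHD they mark, in order, the YY1, ETS and ERR motifs, and in ATP5MC3 the ERR motif. The log2 fold changes of these 5 genes were -0.97 for NDUFB7, -0.72 for NDUFA6, -0.57 for SDHD, -0.71 for ATP5PO and -0.68 for ATP5MC3, and so lay on both sides of the median of the 47.

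The 13 subunits encoded in mitochondrial DNA are the partners of these proteins in complexes I, III, IV and V. They had a median log2 fold change of -0.99, with all 13 below 0 and 0 with an adjusted p under 0.05 by edgeR. At an unadjusted p under 0.05, 10 passed (7.78% of all genes). DESeq2 called 1 of the 13 lower, COX1, with adjusted p = 0.0463 (1.85% of all genes). Their mean difference followed another order over the animals: -1.77 in animal 3622, -1.71 in animal 1022, -1.25 in animal 1322, -0.57 in animal 1623, -0.37 in animal 1323 and 0.15 in animal 1922. The nuclear subunits were lower than the mitochondrially encoded ones by this measure in 3 animals and higher in 3, with a mean gap of 0.08 and an SD of 0.62. Reads on mitochondrially encoded genes outnumbered those on the 47 subunits 4.1 to 9.68 times over (border) and 5.31 to 14.1 times over (remote). The part of the mitochondrially encoded reads in the result for the 47 subunits was tested only by leaving them out of the scaling. That left the median of the 47 at -0.74.

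As a share of all counts, the 47 subunits took 0.588% to 2.52% (median 1.905%) in the border zone and 2.25% to 2.56% (median 2.46%) in the remote zone. The share was below 2.25% in 5 of the 6 border zone libraries, and only that of animal 1322 lay within the remote zone range. With the mitochondrially encoded genes taken out of the total, the shares were 0.623% to 2.81% and 2.62% to 3.57%.

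Other nuclear genes of the organelle were read from lists written for this comparison. The 23 other nuclear subunits tested had a median of -0.77, with 22 below 0 and COX4I2 as the exception. The 43 assembly factors, which build the complexes without being part of them, had a median of -0.42 with 42 below 0, and among them SURF1, needed for complex IV, had -0.68 (adjusted p = 0.131), BCS1L, needed for complex III, -0.66 (adjusted p = 0.139) and SDHAF2, needed for complex II, -0.57 (adjusted p = 0.127, all by edgeR). The 21 other mitochondrial proteins had a median of -0.46 with 20 below 0, including CHCHD3 of the inner membrane folds (-0.68), PHB2, a prohibitin (-0.60), and TOMM22 of the protein import pore (-0.47). No gene of these 3 lists had an adjusted p under 0.05 by edgeR. In that order, 19, 14 and 7 of them had an unadjusted p under 0.05 in the lower direction (7.78% of all genes). DESeq2 called ATP5MC2 of the first list (adjusted p = 0.0424) and CHCHD3 of the third (adjusted p = 0.0475) lower, against 1.85% of all genes. The mean difference of the 47 subunits was below that of the assembly factors in 6 of 6 animals, with a mean gap of -0.36 (SD 0.30), below that of the other mitochondrial proteins in 5 of 6 (-0.29, SD 0.22), and below that of the other nuclear subunits in 3 of 6 (-0.02, SD 0.16). Without animal 1022 the medians of the assembly factors and of the other mitochondrial proteins were -0.27 and -0.30, with 41 and 19 below 0.

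Regulators of mitochondrial gene expression had a median of -0.13 with 11 of 15 below 0, against 46.7% of all genes, and their difference from the subunits was not tested. ESRRA, the estrogen-related receptor alpha, had 68.9 to 355 CPM (median 248) in the border zone and 349 to 419 CPM (median 373) in the remote zone, with -0.71 ± 0.29 (SE, adjusted p = 0.163 by edgeR), and it was lower in 6 of 6 animals. PPARGC1A, the coactivator PGC-1 alpha, and PPARA, a nuclear receptor of fatty acid use, had -0.71 as well (adjusted p = 0.328 and 0.488 by edgeR). PPARGC1A was lower in 5 of 6 animals (0.53 in animal 1322) and PPARA in 4 of 6 (2.58 in animal 1322 and 0.49 in animal 3622), and with the block PPARA had -0.43. TFB1M, a mitochondrial rRNA methyltransferase, had -0.35 (adjusted p = 0.26 by edgeR). PPRC1, a coactivator related to PGC-1, had 0.45 (adjusted p = 0.242 by edgeR), and its border zone value was the higher one in 5 of 6 animals. None of the 15 had an adjusted p under 0.05 by edgeR or DESeq2. By edgeR 1 of the 15 (ESRRA) had an unadjusted p under 0.05, near the share of all genes lower at that threshold (7.78%).

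**Figure D4:**
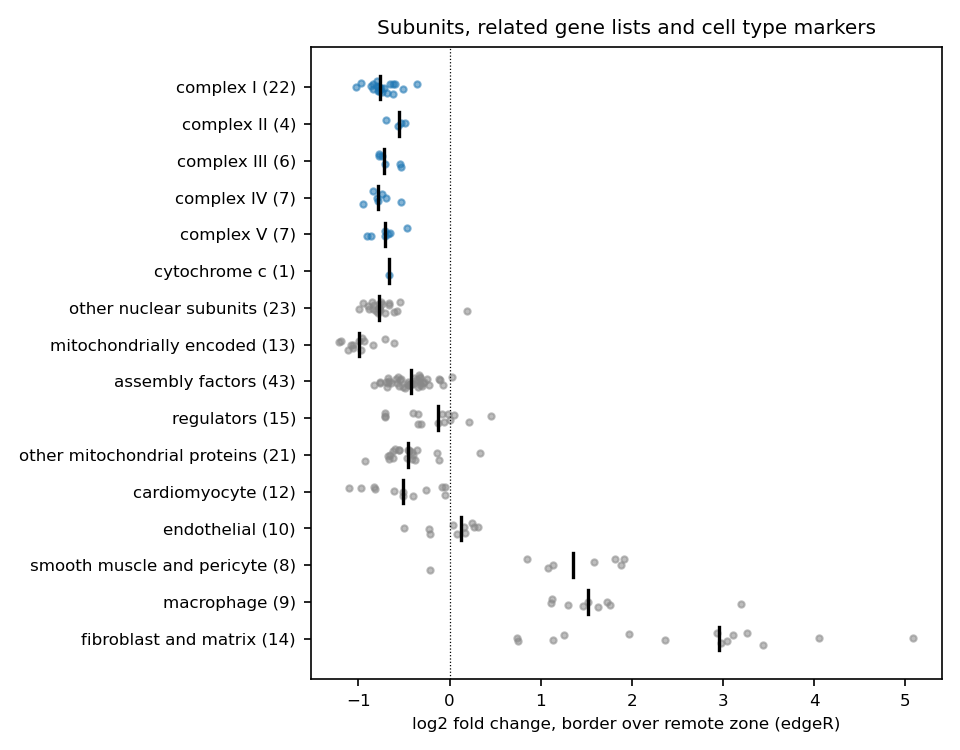
Log2 fold change of each gene (points) and list median (black bar) for the 6 groups of nuclear subunits (blue) and for other mitochondrial and cell type marker lists (grey), with the number of genes tested in brackets. Every blue point lies below 0, the mitochondrial and cardiomyocyte lists lie mostly below 0, and the fibroblast and matrix list lies to the right with a median of 2.96.

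Markers of the cell types in the tissue were read from the same fit, in which calls were made in the fibroblast and matrix list alone. All 12 cardiomyocyte markers tested had log2 fold changes below 0, as had 46.7% of all genes, with a median of -0.51. By edgeR none had an adjusted p under 0.05, and 3 had an unadjusted p under 0.05 (7.78% of all genes, lower direction). DESeq2 called 1 of the markers lower, TNNI3, with adjusted p = 0.0487 (1.85% of all genes). Without animal 1022 their median was -0.28, with 9 of 12 below 0, and with library totals it was -0.29, also with 9. Their summed level was 13532 to 78681 CPM in the border zone and 63380.0 to 112618 CPM in the remote zone, so the labelled tissue carried heart muscle RNA in every library. Of the 14 fibroblast and matrix markers, 11 rose by edgeR's adjusted test (2.06% of all genes). All 14 had log2 fold changes above 0 (median 2.96). With the animal as a block, 1 of the 14 was called, and 40 of all genes tested were called higher. Dropping animal 1022 gave a median of 1.78 and 10 marker calls, with 157 higher calls over all genes. Dropping animal 1322 gave 11 marker calls, with 509 over all genes. In the fits that dropped 1323, 1623, 1922 or 3622, 0 of the markers were called. Over all genes these fits made only 3, 0, 14 and 0 higher calls, so the fall to 0 was not particular to the markers. All 14 markers stayed above 0 in each fit named here. Their summed level was 3566 to 12589 CPM in the border zone without animal 1022, 72138 CPM in that of animal 1022, and 1279 to 3039 CPM in the remote zone. FBN1, a microfibril protein of the matrix, had the lowest p of that list, with a log2 fold change of 2.37 (SE 0.45, adjusted p = 0.0276 by edgeR, and 0.0634 with the block). Leaving out animal 1022 brought it to 1.6.

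The 9 macrophage markers summed to 131 to 1536 CPM (border) and 121 to 260.1 CPM (remote), and the 8 smooth muscle and pericyte markers to 505 to 3071 CPM and 225 to 612 CPM. Their medians were 1.52 and 1.36, with 9 of 9 and 7 of 8 above 0. These values rested in large part on animal 1022, without which the medians were 0.60 and 0.70 and the highest border zone sums 372 and 962 CPM. In the comparison of all 13844 genes edgeR called none of their genes. It called 1 smooth muscle and pericyte gene without animal 1322 and 1 in the fit limited to genes with a length and GC value, and 7 of each list were called with library totals (11.2% of all genes were called higher), and DESeq2 called 4 of each (8.48% of all genes). The lowest p in these lists belonged to CD68 (3.20, adjusted p = 0.0637) and CSPG4 (1.88, adjusted p = 0.0526, both by edgeR), which had 1.31 and 1.06 without animal 1022. The 10 endothelial markers had a median of 0.12, with 7 above 0 and 3 below (-0.05 without animal 1022, with 3 above 0 and 7 below). The lowest p was that of CLDN5, at -0.50 (adjusted p = 0.336 by edgeR), and the list summed to 417 to 588 CPM (border) and 310.3 to 714 CPM (remote). The 6 lymphocyte markers tested had a median of 0.62, all above 0, with NKG7 at 1.63 (adjusted p = 0.158 by edgeR, with 0.55 on the same scale when animal 1022 was left out), and the full list of 8 summed to 8.27 to 73.4 CPM (at most 26.2 CPM without animal 1022) and 8.42 to 15.6 CPM. The 5 adipocyte markers tested had a median of 1.08, with 3 above 0 and 2 below, the lowest at -0.52. The full list of 6 summed to 206 to 1095 CPM (median 659) in the border zone and 759.6 to 1062 CPM (median 909) in the remote zone, and LEP had at most 12 counts in any library, with 0 in 3 border zone and all 6 remote zone libraries. ADIPOQ, the fat cell hormone adiponectin, had the lowest p of that list, with 5.37 (adjusted p = 0.054 by edgeR, and 0.0476 with the block). The part of these cell types in the result for the 47 subunits was not tested.

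Measured against the cardiomyocyte markers of the same library, the mean log2 CPM of the 47 subunits lay at -3.74 to -3.52 for border samples and -3.67 to -3.15 for remote samples. The within-animal difference of this gap was 0.07 in animal 1022, -0.32 in animal 1322, -0.28 in animal 1323, -0.14 in animal 1623, 0.05 in animal 1922 and -0.48 in animal 3622 (mean -0.18, SD 0.22, n = 6). In animal 1022 the markers stood at -2.30 and the subunits at -2.23, whereas in animal 1322 the markers stood at 0.00 and the subunits at -0.32.

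**Figure D5:**
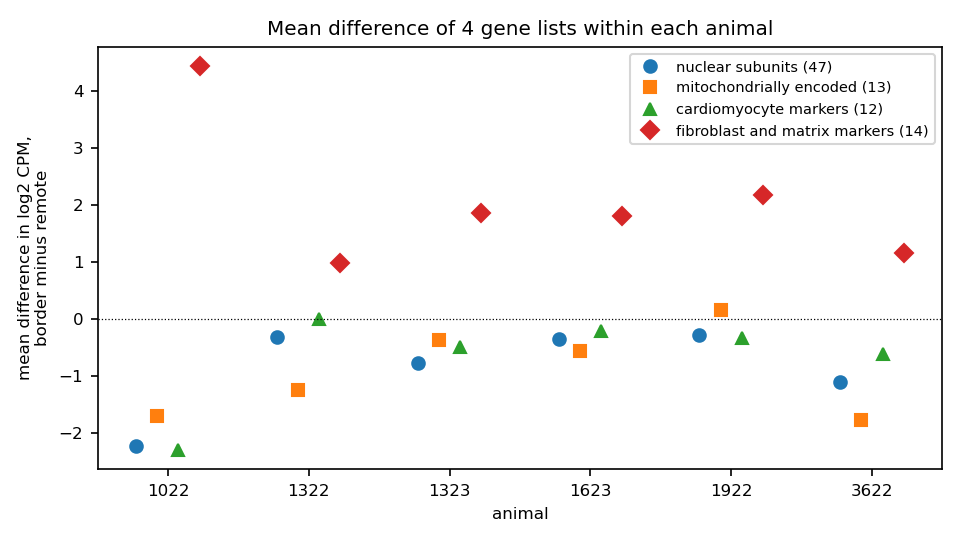
Mean difference in log2 CPM between border zone and remote zone (vertical axis) in each animal (horizontal axis) for the 47 nuclear subunits, 13 mitochondrially encoded genes, 12 cardiomyocyte markers and 14 fibroblast and matrix markers. The circles of the nuclear subunits are below 0 in all 6 animals, the squares of the mitochondrially encoded genes are below 0 in 5, and the diamonds of the matrix markers are above 0 in all 6, with the highest, 4.44, in animal 1022.

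The difference was also set against properties of the transcripts, with correlations of both signs. Across the 38 subunits with exon lengths (485 to 2769 bases, median 913), the within-animal difference and the length had Spearman correlations of -0.39 in animal 1022, 0.38 in animal 1322, 0.36 in animal 1323, 0.01 in animal 1623, -0.15 in animal 1922 and 0.39 in animal 3622. Over the 78.4% of all genes tested that have a length the values were 0.13, 0.36, 0.21, 0.06, 0.10 and 0.39 in the same order, close to those of the subunits in animals 1322 and 3622. For GC content the values were 0.05, -0.58, -0.05, -0.19, -0.72 and -0.32 in the same order of animals, and 0.11, -0.34, 0.11, -0.02, -0.03 and -0.09 over all genes. These are descriptions across genes that share both libraries of an animal. Of the 8 subunits with a difference above 0 in animal 1322, 6 have an exon length, and 5 of these are over the median length (NDUFA5, NDUFS1, SDHA, SDHC and ATP5F1A). The part of length and GC content in the result was not tested beyond a refit with offsets for both, added after the data had been seen, in which all 38 remained below 0 with a median of -0.64, while the median over the fitted genes, 78.4% of those tested, moved to -0.12.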

How the data were processed

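Messenger RNA of 6 pigs was sequenced in 12 libraries, with 1 border and 1 remote sample per animal. The authors made poly(A)-enriched nondirectional paired-end libraries, aligned the reads to Sscrofa11.1 with STAR and counted them per Ensembl gene with featureCounts. The deposited values are those raw counts, without normalization. How multi-mapping reads were handled is not given in the sources used here, so genes with near-identical copies are uncertain, and reads of overlapping genes cannot be assigned by strand. PCR copies cannot be told apart from separate molecules, so precision from counts covers counting error only.

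Labels gave the region and animal of each library. Symbols came from a table that pairs 15623 of the 35682 identifiers. Exon lengths, coordinates and promoter windows came from the RefSeq annotation of the same build, in which 38 of the 47 subunits were found by symbol. Membership follows function and not a measured value, but the gene group, the lists and the tests were chosen for description with earlier results of these data known. Lists other than the 54 subunits were written for this work from general knowledge.

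Counts were filtered with filterByExpr, scaled by TMM and tested with the quasi-likelihood test (robust) of edgeR 4.0.16 in R 4.3.3, with region as the only term and an adjusted p under 0.05. Log2 CPM used a prior count of 2. Standard errors were obtained by dividing the fitted log2 value by the root of its F statistic. DESeq2 1.42.0 served as an alternative. Single genes were also tested by exact permutation (two-sided) of the signs of the within-animal differences. Summaries used Python 3.11.15 with SciPy 1.17.1, NumPy 2.4.6 and pandas 2.3.3. The steps were tested on simulated counts of 13844 genes, of which 200 were changed by 2-fold or 4-fold, with no animal effect. Of 2-fold changes edgeR recovered 28%, edgeR with the block 20% and DESeq2 47%. Of 4-fold changes they recovered 82%, 77% and 92%, and they called 5, 4 and 41 unchanged genes.

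Libraries with the same number share an animal and are therefore paired. Across all genes tested, the deviations of an animal's libraries from their region means correlated with r from -0.03 (animal 1022) to 0.57 (animal 1323), and across the 47 subunits from 0.01 to 0.75. Genes are not independent replicates. Where nothing else is said, p-values come from fits with region as the only term. They measure the spread between the libraries of a region, 1 per animal for 6 animals, and leave out the pairing.

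Genes named were drawn from members with an adjusted p under 0.05 with or without the block and the 3 lowest and the 1 highest p of each complex. Further ones were a chosen list of core or catalytic subunits, without UQCRC2 and some others. The 3 lowest p of each other mitochondrial list with the COX isoforms, and the lowest p of each cell type list, completed the rule. ND6, ATP6, NDUFB11 and ATP5PF met this rule and are not described singly. NDUFA4, NDUFA5, NDUFA6, NDUFA9, NDUFA10, NDUFB6, NDUFB10, NDUFS4, UQCRC2, PPARGC1A, PPARA and LEP fall outside this rule where they are named, and were chosen after their values were seen. Alternatives were the animal as a replicate block, DESeq2, DESeq2 size factors, library totals, no filter, no mitochondrially encoded genes, a minimum of 10 counts throughout, each animal left out, prior counts of 0.5 and 5, shorter motifs and, added after the data were seen, offsets for length and GC content (splines with 4 degrees of freedom).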

Additional observations from a re-analysis of the deposited data

Results flagged for a closer look

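A value was singled out where the highest or lowest library of a region lay far from the other 5 by Dixon's test of the gap to its nearest neighbour. Of 113 groups of 6 values examined, 40 met this, whereas chance gives about 1 in 20, and the groups are not independent because they share libraries. All but 1 concern animal 1022.

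In the border zone library of animal 1022, the mean log2 CPM of the 47 subunits was 6.24, with 7.96 in the next lowest border zone library. By complex it was 5.68 for complex I, 6.56 for complex II, 6.45 for complex III, 6.59 for complex IV, 7.24 for complex V and 6.58 for cytochrome c. Low values were also found there for the other nuclear subunits (5.11), the assembly factors (3.16), the other mitochondrial proteins (6.53) and the cardiomyocyte markers (9.78), and a high value for the fibroblast and matrix markers (10.17, with 8.07 in the next library).

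Single subunits stood out in the same library. In complex I the log2 CPM was 6.44 for NDUFS1, 5.75 for NDUFS6, 6.54 for NDUFS8 and 6.76 for NDUFV1. In complex II the log2 CPM was 8.02 for SDHA, 6.08 for SDHB, 5.75 for SDHC and 6.38 for SDHD. In complex III the log2 CPM was 7.15 for CYC1, 5.44 for UQCRB, 7.40 for UQCRC1 and 6.83 for UQCRFS1. In complex IV the log2 CPM was 8.38 for COX4I1, 6.32 for COX5A and 7.06 for COX7C. In complex V the log2 CPM was 9.04 for ATP5F1A, 6.89 for ATP5MC1, 6.97 for ATP5MC3 and 6.77 for ATP5PO. CYCS had 6.58.

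The within-animal difference of animal 1022 stood apart from the other 5 for complex II (-2.14), complex III (-2.47), cytochrome c (-2.69), the assembly factors (-1.46), the other mitochondrial proteins (-1.76), the cardiomyocyte markers (-2.30) and the fibroblast and matrix markers (4.44). In the remote zone library of animal 3622, reads on mitochondrially encoded genes were 14.1 times those on the 47 subunits, with 8.41 in the next highest remote zone library.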

How the results depend on the processing

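All 47 subunits (38 of 38 with length and GC values) had a log2 fold change below 0 in each fit run, and edgeR called 0 of them after adjustment in each. DESeq2 called 7. Their median ranged from -0.87 to -0.60 with an animal left out, and was -0.44 with library totals, where the median of all genes was 0.32 and 6 of the 47 passed unadjusted (28 with TMM). With each animal left out, the within-animal difference of their mean ranged from -0.96 to -0.57 and the median of complex II from -0.69 to -0.40. In the fit with a replicate block (paired by animal) their median was -0.84, and no call of a named subunit changed. The count of all genes past the threshold was 287, and 41 with the block, 1724 by DESeq2, 1551 with library totals, 139 without a filter, and 149 with at least 10 counts in every library. With length and GC offsets and the block it was 32, but these were fitted on 78.4% of genes, under 80%, so that this count is void as a check. With an animal left out it ranged from 0 (without animal 1623 or 3622, with 2662 and 2448 genes at an unadjusted p under 0.05 by edgeR) to 519 (without animal 1322), with 163, 3 and 15 without animals 1022, 1323 and 1922. Of 768 refitted values of 50 named genes, 740 stayed on their side of the threshold in the same direction, 21 gained a call, 6 lost it (all FBN1) and 1 turned: COX4I2, from -0.23 without animal 1022 to 0.46 without animal 1322. The cause was not tested. Each subunit had at least 729 counts per library.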
